A study of Mus musculus with 12 samples.

Results

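A set of 10 genes of matrix degradation was followed through a cardiac differentiation of mouse stem cells: 7 matrix metalloproteinases (Mmp2, Mmp3, Mmp9, Mmp11, Mmp12, Mmp13 and Mmp14) and 3 of their tissue inhibitors (Timp1, Timp2 and Timp3). They were identified by gene symbol, through the RefSeq accession of every probe that is not a control. The set was chosen with earlier results of these data known. Its counts and medians beside those of all genes are therefore a description and no test. These 10 genes had 13 probes among the 41174 of the array, and 8 of them passed the filter on dim probes and were among the 20875 genes tested, of 31758 on the array (accessions without a symbol count as genes). Mmp3 and Mmp13 did not pass it. There were 12 one-colour Agilent arrays in 3 groups of 4: embryonic stem cells of the mouse (mESC), differentiating cells of day 9 and those of day 14, plated on elastin-like polypeptide, an artificial elastin, in crosslinked form. The labels repeat 1 growth text for all 12 samples, also those of mESC and day 9. It gives 2 days in a LIF-free stem cell medium, followed by 12 days in a medium with 2.5% serum replacement. The labels give neither the strain, the line or the genotype of the cells, nor the day on which the mESC samples were taken. Whether the 4 replicates of a group came from separate cultures is not stated in the labels, and p-values therefore rest on the spread among these samples alone, which may be technical.

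Matrix metalloproteinases are zinc enzymes that cut collagens, elastin, proteoglycans and other proteins outside the cell. Most are secreted as inactive proenzymes, whereas Mmp14 stays anchored in the membrane, and the Timp proteins block the active site of the mature enzymes. In the heart these proteases and inhibitors take part in the turnover of the matrix laid down mainly by fibroblasts.

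All levels are log2 signal relative to the 75th percentile of the same array, which lay between 346.8 and 508.0 signal units, so a level of 0 equals that percentile. Between 59.5% and 67.9% of probes were well above background on an array. Replicates of a group correlated at 0.9893 or more, and since every group had a slide and a scan to itself, effects of slide and of group cannot be told apart. A gene was called, and is said to have risen or fallen, at an adjusted p under 0.05 in limma with a log2 fold change of at least 1. By this rule 41.0% of all genes differed between day 9 and mESC, 46.8% between day 14 and mESC, and 13.8% between both days. Of the called genes 48.7% were higher at day 14 than in mESC and 73.9% were higher at day 14 than at day 9, which became 36.4% and 58.9% when arrays were scaled to their median, a scaling that moved the median gene by -0.32 and -0.19 on the log2 scale. The group labels were checked against marker lists: 8 of 8 pluripotency genes fell and 10 of 10 cardiomyocyte genes rose on both days. In these bulk samples more cells of a type and more RNA per cell cannot be told apart. Comparisons of both days with mESC share the same 4 mESC arrays, and those with day 9 share the same 4 day 9 arrays.

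The members with a promoter window differed in the motifs just before their transcription starts. Textbook accounts place a binding site for the transcription factor AP-1 before the collagenase and stromelysin genes. RefSeq promoter windows (GRCm38.p6) were at hand for 8 of the 10 genes, not for Mmp2 and Mmp9. The 100 bases before the start are shown for the 3 members of the protease cluster on chromosome 9 and for 3 members that rose together, because these 6 windows hold different motifs. Capitals mark TGANTCA, the AP-1 motif, or GGGCGG, the GC box, on either strand.
Mmp3, chr9:7445722-7445821 (+): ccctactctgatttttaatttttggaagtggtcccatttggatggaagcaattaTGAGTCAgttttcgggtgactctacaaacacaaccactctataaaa
Mmp12, second start, chr9:7347274-7347373 (+): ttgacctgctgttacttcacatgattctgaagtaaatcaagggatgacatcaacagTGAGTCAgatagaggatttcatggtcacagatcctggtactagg
Mmp13, chr9:7272414-7272513 (+): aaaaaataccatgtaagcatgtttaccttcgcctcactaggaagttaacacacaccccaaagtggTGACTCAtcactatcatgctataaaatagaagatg
Mmp14, chr14:54431498-54431597 (+): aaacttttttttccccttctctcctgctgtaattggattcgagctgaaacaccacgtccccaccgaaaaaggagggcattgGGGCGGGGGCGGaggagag
Timp2, chr11:118355412-118355511 (-): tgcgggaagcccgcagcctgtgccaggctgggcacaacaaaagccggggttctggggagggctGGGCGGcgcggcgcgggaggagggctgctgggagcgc
Timp3, chr10:86300312-86300411 (+): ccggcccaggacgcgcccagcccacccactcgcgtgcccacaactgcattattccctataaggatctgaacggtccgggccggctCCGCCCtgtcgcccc

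The AP-1 motif began 46 bases before the start of Mmp3, 44 before the second start of Mmp12 and 35 before that of Mmp13. None of these 3 windows of 250 bases held a GC box. The windows of Mmp14, Timp2 and Timp3 held a GC box and no AP-1 motif, and so did those of Timp1 and Mmp11. The window at the first start of Mmp12 held neither. Among all 32851 promoter windows of 250 bases, 6.75% held the AP-1 motif and 32.7% the GC box. The GC content was 37.6% for Mmp3, 39.6% for Mmp12 at the second start and 40.4% for Mmp13, below the median of 52.4% over all windows. It was 55.2% for Mmp14, 65.6% for Timp3 and 68.0% for Timp2, above that median. A match of letters describes the window and does not show a bound site.

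At day 9 the membrane protease Mmp14, the gelatinase Mmp2 and the inhibitors Timp2 and Timp3 had risen, and no member had fallen. They were 4 of the 8 members tested, beside 20.1% of all genes called higher and 21.0% called lower. The rise came to 7.95-fold for Mmp14, 14.1-fold for Mmp2, 24.3-fold for Timp3 and 25.2-fold for Timp2. The median log2 fold change of the 8 members was 1.79, beside -0.16 over all genes tested.

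At day 14 the same 4 genes were 13.5-fold to 59.2-fold above mESC, and Mmp9 and Mmp12 had risen as well. Mmp12 passed the filter only through its day 14 arrays, so its place in the counts for day 14 is no independent support. Of the 8 members tested, 6 were higher than in mESC and 0 lower, beside 22.8% of all genes called higher and 24.0% called lower. Their median log2 fold change was 4.47, against -0.19 over all genes. Between day 9 and day 14, 5 members rose (Mmp2, Mmp9, Mmp12, Timp2 and Timp3) and 0 fell, beside 10.2% of all genes called higher and 3.60% called lower. The median over the members was 1.24 in that comparison and -0.090 over all genes.

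**Figure D1:**
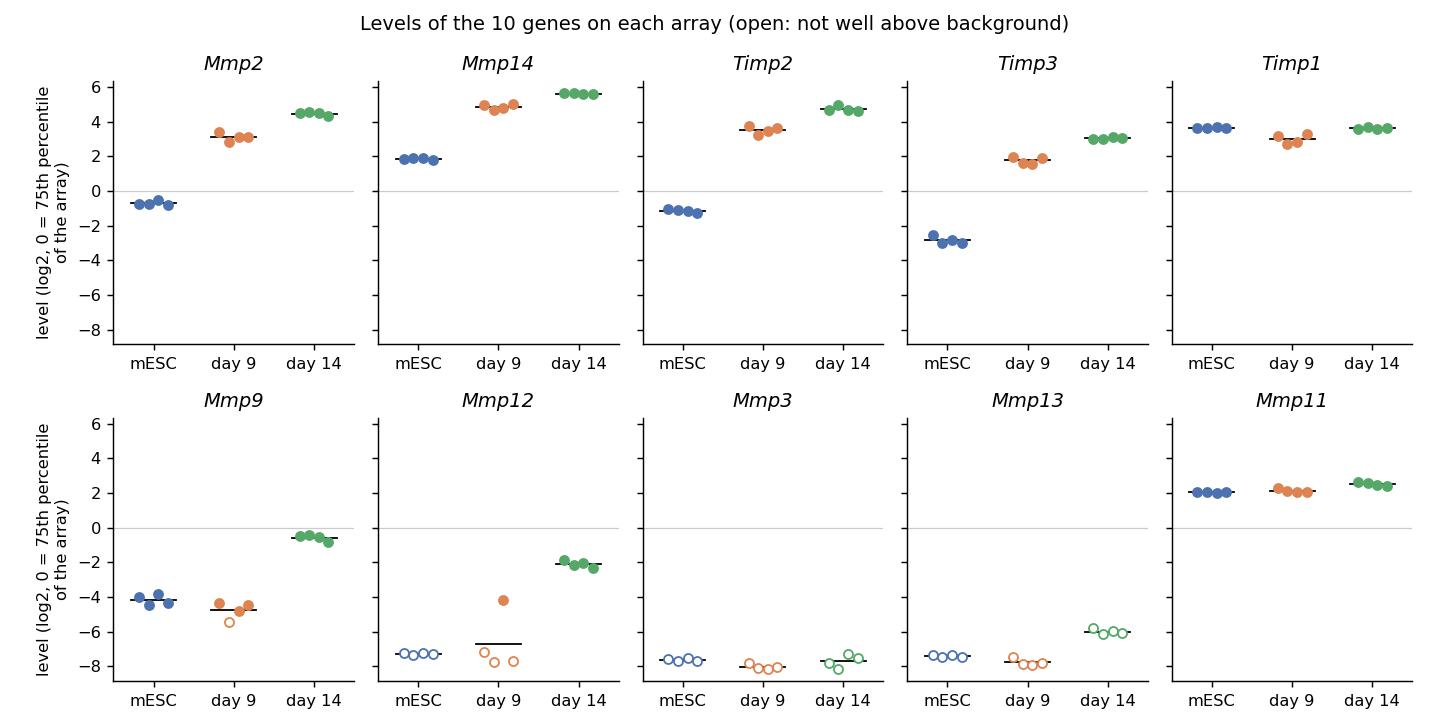
Level of each of the 10 genes on each array, as log2 signal with the array's 75th percentile at 0. Points are single arrays, lines are group means over 4 arrays, and open points were not well above background; Mmp2, Mmp14, Timp2 and Timp3 step up at each time, Mmp9 and Mmp12 are highest on the day 14 arrays, and Mmp3 and Mmp13 are open throughout.

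**Figure D2:**
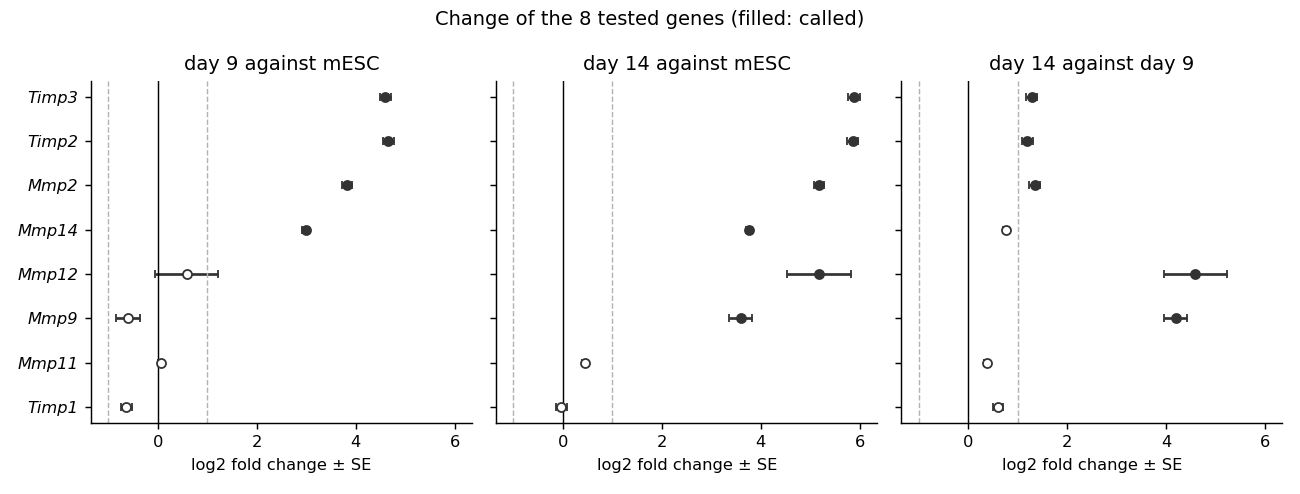
Log2 fold change of the 8 tested genes in each comparison, with the standard error from limma (4 arrays per group). Filled points were called and dashed lines mark a log2 fold change of 1 in either direction; 4, 6 and 5 points are filled in the comparisons from left to right.

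Mmp14, also called MT1-MMP, is a collagenase of the cell surface and the main activator of the Mmp2 proenzyme. Its level was 1.87, 1.91, 1.89 and 1.80 on the mESC arrays, 4.94, 4.69, 4.78 and 5.01 at day 9, and 5.66, 5.66, 5.59 and 5.59 at day 14. The groups did not overlap, and the order was mESC, day 9, day 14. The log2 fold change was 2.99 ± 0.07 (SE, limma adjusted p 3.74e-12) at day 9 and 3.76 ± 0.07 (adjusted p 5.58e-13) at day 14 against mESC. Day 14 lay 0.77 ± 0.07 above day 9 (adjusted p 1.91e-06), short of the fold needed for a call. A second probe of Mmp14 gave 3.20, 4.09 and 0.89 for the 3 comparisons, with the same calls.

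Mmp2, gelatinase A, cuts denatured collagen and the collagen of basement membranes. It stood at -0.72, -0.72, -0.53 and -0.80 on the mESC arrays, 3.41, 2.85, 3.14 and 3.10 at day 9, and 4.52, 4.55, 4.50 and 4.34 at day 14. Every day 14 array was above every day 9 array, and every day 9 array above every mESC array. The log2 fold change was 3.82 ± 0.11 at day 9 (limma adjusted p 2.49e-11) and 5.17 ± 0.11 at day 14 (adjusted p 1.92e-12), and the step between the days was 1.35 ± 0.11 (adjusted p 9.63e-07), a 2.55-fold rise.

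Timp2 inhibits metalloproteinases and at the cell surface also links the Mmp2 proenzyme to Mmp14. It measured -1.06, -1.07, -1.14 and -1.25 on the mESC arrays, 3.75, 3.24, 3.49 and 3.65 at day 9, and 4.67, 4.94, 4.68 and 4.63 at day 14. The groups were again separate, with replicate 2 the lowest at day 9 and the highest at day 14. The log2 fold change was 4.66 ± 0.11 at day 9 (limma adjusted p 5.78e-12), 5.86 ± 0.11 at day 14 (adjusted p 8.28e-13) and 1.20 ± 0.11 between the days (adjusted p 2.86e-06).

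Timp3 is the inhibitor that binds to the matrix itself. Its level was -2.54, -3.00, -2.81 and -2.99 on the mESC arrays, 1.97, 1.64, 1.55 and 1.89 at day 9, and 2.99, 3.01, 3.12 and 3.09 at day 14. No 2 groups overlapped, and the order was the same as for Timp2. It rose by 4.60 ± 0.12 on the log2 scale at day 9 (limma adjusted p 1.17e-11), by 5.89 ± 0.12 at day 14 (adjusted p 1.44e-12) and by 1.29 ± 0.12 between the days (adjusted p 2.98e-06). With normexp background correction the rises against mESC were 3.38 and 4.52, and the calls stayed.

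Timp1, a secreted inhibitor that binds the Mmp9 proenzyme, took another course. Its level was 3.65, 3.65, 3.67 and 3.63 on the mESC arrays, 3.19, 2.71, 2.86 and 3.30 at day 9, and 3.57, 3.68, 3.61 and 3.61 at day 14. The day 9 arrays were the lowest, while mESC and day 14 overlapped. Day 9 lay -0.64 ± 0.11 from mESC on the log2 scale (limma adjusted p 1.98e-04) and day 14 lay 0.61 ± 0.11 above day 9 (adjusted p 5.41e-04), neither enough for a call. Day 14 against mESC gave -0.030 ± 0.109 (adjusted p 0.805), and 0.27 with quantile normalization. The second probe gave -0.74, -0.07 and 0.66 for day 9 and day 14 set against mESC and for the later against the earlier day, and was not called.

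Mmp9, gelatinase B, is a secreted protease known from macrophages, neutrophils and osteoclasts. It stood at -4.01, -4.46, -3.84 and -4.34 on the mESC arrays and at -4.33, -5.46, -4.83 and -4.44 at day 9, where replicate 2 was not well above background. At day 14 it was -0.50, -0.40, -0.53 and -0.85, above every other array, while mESC and day 9 overlapped. The difference at day 9 was -0.60 ± 0.23 (limma adjusted p 0.0317), not called. Day 14 was higher by 3.59 ± 0.23 than mESC (adjusted p 3.25e-08) and by 4.20 ± 0.23 than day 9 (adjusted p 6.18e-08). A second probe gave 4.11 and 4.72 for these rises. With normexp correction they were 1.96 and 2.17, still called.

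Mmp12, the macrophage elastase, was not well above background on any mESC array, where its probe read -7.23, -7.37, -7.24 and -7.31. At day 9 it read -7.17, -7.74, -4.20 and -7.71, and only replicate 3 was well above background. At day 14 it was -1.89, -2.16, -2.05 and -2.36, well above background on 4 of 4 arrays and above every other array. Mmp12 passed the filter only through these day 14 arrays. Its p-values for day 14 are therefore no independent support for a rise. Day 14 was at least 9.52-fold above mESC. This bound sets the day 14 mean against the dimmest signal well above background on each mESC array, and "at least" has this meaning below. The fitted log2 difference, which rests on readings below background, was 5.18 ± 0.64 for day 14 against mESC (limma adjusted p 1.13e-05) and 4.59 ± 0.64 for day 14 against day 9 (adjusted p 7.99e-05). Without replicate 3 of day 9 the latter was 5.43. With normexp correction both shrank, to 1.40 and 1.44, and stayed called. Day 9 against mESC gave 0.58 ± 0.64 (adjusted p 0.409), which turned to -0.25 without replicate 3 of day 9 and to -0.042 with normexp correction.

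Mmp11, stromelysin 3, is unusual in leaving the cell already active, after cleavage by furin. It lay at 2.08, 2.08, 2.03 and 2.08 on the mESC arrays, 2.27, 2.12, 2.05 and 2.08 at day 9, and 2.62, 2.59, 2.46 and 2.41 at day 14. The day 14 arrays were the highest, and mESC and day 9 overlapped. Day 14 differed from mESC by 0.45 ± 0.06 (limma adjusted p 2.72e-05) and from day 9 by 0.39 ± 0.06 (adjusted p 2.11e-04), below the fold needed for a call. Day 9 against mESC gave 0.062 ± 0.062 (adjusted p 0.363), and -0.068 with median scaling.

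Mmp3, stromelysin 1, and Mmp13, a collagenase, were not well above background on any of the 12 arrays. Mmp3 read between -7.73 and -7.55 in mESC, -8.14 and -7.79 at day 9, and -8.16 and -7.30 at day 14. Mmp13 read between -7.49 and -7.35 in mESC, -7.91 and -7.46 at day 9, and -6.15 and -5.81 at day 14. Its day 14 readings were the highest of the 12, but with none well above background in any group no fold is given. The readings of these probes are bounds and do not show that the RNAs were absent.

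The signals of the proteases and inhibitors that rose by day 9 did not rise equally. For each array the log2 level of the inhibitor was subtracted from that of the protease, and the groups were compared by a two-sided exact permutation test of 4 against 4 arrays. Its smallest p is 0.0286, or 0.04 after adjustment over the 21 tests of 7 pairs, and 15 tests reached it. The differences show unequal change of probe signals, not which product was more abundant. Probes of the same gene can differ too. At day 14 against mESC those of Mmp14 gave 3.76 and 4.09, those of Mmp9 3.59 and 4.11, and those of Timp1 -0.03 and -0.07. The test over arrays cannot tell such a probe difference from unequal change of the RNAs.

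Mmp2 rose less than Timp2, by a log2 difference of -0.84 ± 0.08 (SE, n = 4 per group) at day 9 and -0.69 ± 0.08 at day 14, both with an exact p of 0.0286 (adjusted 0.04). Between the days the balance of Mmp2 and Timp2 moved by 0.15 ± 0.07 (exact p 0.143, adjusted 0.177), within the spread, and by 0.20 (adjusted exact p 0.04) without replicate 2 of day 14. Mmp14 rose less than Timp2 by -1.67 ± 0.06 at day 9 and -2.10 ± 0.07 at day 14, and its balance moved by a further -0.43 ± 0.08 between the days. Against Timp3, Mmp14 gave -1.61 ± 0.12, -2.13 ± 0.12 and -0.52 ± 0.08. These 6 Mmp14 tests reached the smallest exact p. For Mmp14 and Timp3 at day 9, normexp correction gave -0.36 with an adjusted exact p of 0.0631.

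Between Timp2 and Timp3 no difference in change passed the test, which does not show that they changed equally. Timp3 minus Timp2 changed by -0.058 ± 0.117 at day 9 (exact p 0.629), 0.030 ± 0.131 at day 14 (exact p 0.886) and 0.088 ± 0.114 between the days (exact p 0.457). With normexp correction the first 2 became -0.84 and -0.77, with an adjusted exact p of 0.0353 for each. That correction adds an offset of 50 signal units to every spot. The processed signal in mESC was 46.3 to 61.3 for Timp3 and 158 to 177 for Timp2, so the offset weighs more on Timp3. Its part in these values was not tested. Timp1 and Timp2 parted by -5.29 ± 0.07 at day 9 and -5.89 ± 0.07 at day 14, and by -0.59 ± 0.08 between the days, with the smallest exact p in each.

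For Mmp9 and its partner Timp1 the difference changed at day 9 by 0.033 ± 0.195 (exact p 0.971), within the spread, but with normexp correction it was 0.39 with an adjusted exact p of 0.0353. The pair parted by 3.62 ± 0.17 at day 14 against mESC and 3.59 ± 0.17 against day 9. Both values had the smallest exact p, and they were 2.11 and 1.72 with normexp correction. Mmp12 entered the test only through its day 14 level, and its readings in mESC and on 3 of 4 day 9 arrays were not well above background. The differences between Mmp12 and Timp1, 5.20 and 3.99 in the same comparisons, are therefore no measured sizes, although both are among the 15 tests at the smallest p. The first was 1.55 with normexp correction. The second was 4.87 without replicate 3 of day 9, and it passed the threshold neither without any one of the 4 day 14 arrays (adjusted exact p 0.0749 to 0.0799) nor with normexp correction (0.98, adjusted exact p 0.0631). At day 9 this pair gave 1.22 (exact p 0.114) and 0.33 without replicate 3. It passed the threshold without replicate 4 (1.65, adjusted exact p 0.0375), with normexp correction (0.56, adjusted exact p 0.0353) and with quantile normalization (1.32, adjusted exact p 0.0375).

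**Figure D3:**
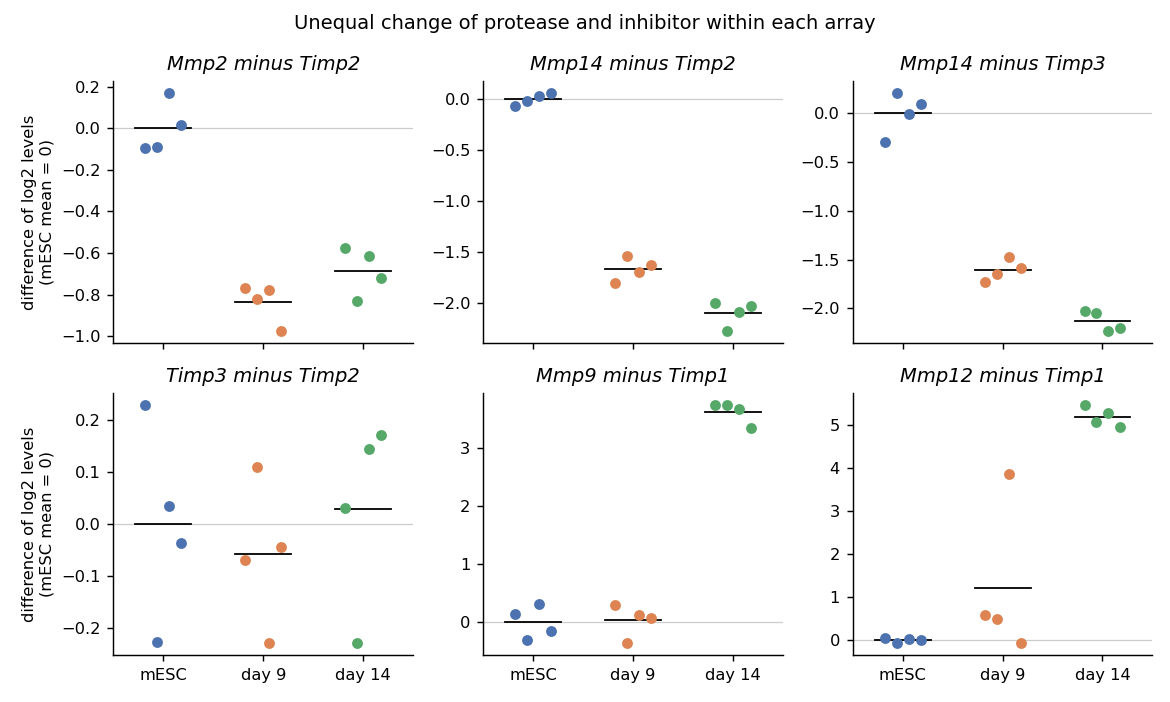
Difference of log2 levels between 2 genes on each array, set to 0 at the mESC mean; points are arrays and lines are means over 4 arrays, and each panel has its own vertical scale. Mmp14 falls behind Timp2 and Timp3 on every day 9 and day 14 array, Timp3 and Timp2 scatter around 0, and Mmp9 and Mmp12 pull away from Timp1 on the day 14 arrays.

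Most of the cluster on chromosome 9 was not well above background on these arrays. In the RefSeq annotation of GRCm38.p6 it runs Mmp13, Mmp12, Mmp1b, Mmp3, Mmp1a, Mmp10, Mmp8, Mmp27, Mmp20 and Mmp7, with 0 other protein-coding genes between the first and the last of these 10. The array names probes of 8 of them, and Mmp12 alone was tested. Of the other 7, Mmp1a was well above background on 1 array and the rest on none. Mmp12 was well above background on 5 arrays, 4 of them at day 14.

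Beyond the 10 genes, 18 further family members were listed, of which 16 were on the array and 7 were tested. Of these, 4 rose and 2 fell at day 9, 4 rose and 1 fell at day 14 against mESC, and 3 rose and 0 fell between the days. The membrane proteases went in different directions. Mmp16 was at least 35.8-fold above mESC at day 9 and at least 70.6-fold at day 14, while its second probe was not well above background on any mESC or day 9 array and gives no size. Mmp15 rose by 1.97 ± 0.16 at day 9 (limma adjusted p 2.34e-07) and by 1.09 ± 0.16 at day 14 (adjusted p 4.10e-05), the latter below the fold for a call with normexp (0.81), quantile (0.99) or median scaling (0.77). Mmp17, which is held by a lipid anchor, fell by 3.96 ± 0.10 at day 9 (adjusted p 1.24e-11) and by 2.06 ± 0.10 at day 14 (adjusted p 2.60e-09), and rose by 1.90 ± 0.10 between the days. Mmp23 rose by 2.91 ± 0.07 at day 9 (adjusted p 1.03e-11) and 4.54 ± 0.07 at day 14 (adjusted p 2.97e-13).

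Mmp19 was at least 1.69-fold lower at day 9 than in mESC, a call lost with normexp correction or without mESC replicate 1 or day 9 replicate 3. Between the days it was at least 3.13-fold higher, and that call was lost with normexp correction. Reck, a membrane-anchored inhibitor of Mmp2, Mmp9 and Mmp14, rose by 1.91 ± 0.07 at day 9 (limma adjusted p 3.35e-10) and 2.10 ± 0.07 at day 14 (adjusted p 1.19e-10). Timp4, named after its values were seen, gave -0.32 ± 0.07 at day 9 (adjusted p 1.63e-03) and -0.24 ± 0.07 at day 14 (adjusted p 9.10e-03, and 0.18 with normexp correction), and was not called.

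Activators, binding partners and clearance proteins made up a list of 18 genes, 16 of them tested. Of these, 8 rose and 3 fell at day 9, 11 rose and 2 fell at day 14 against mESC, and 5 rose and 1 fell between the days, with median log2 fold changes of 1.16, 1.97 and 0.81. Plat and Plau encode the 2 plasminogen activators, whose product plasmin can activate metalloproteinase proenzymes. Plat rose by 5.62 ± 0.08 at day 9 (limma adjusted p 1.88e-13) and stood 5.06 ± 0.08 above mESC at day 14 (adjusted p 3.03e-13). Plau was at least 33.9-fold above mESC at day 14 and rose by 4.28 ± 0.15 between the days (adjusted p 1.29e-09). Its second probe, also dim in mESC, was called at day 14 with a smaller fitted log2 change of 3.28, beside 7.17. Plg, plasminogen itself, was at least 14.4-fold above mESC at day 14.

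Cd44, a hyaluronan receptor that can hold Mmp9 and Mmp14 at the cell surface, rose by 4.06 ± 0.07 at day 9 (limma adjusted p 6.59e-13). Thbs2, a matrix protein that takes part in clearance of Mmp2, was at least 128-fold above mESC at day 14 and rose by 5.53 ± 0.14 between the days. Lcn2, which binds Mmp9, was at least 2.34-fold higher at day 14 than at day 9, a call lost with normexp correction. Pzp, a broad protease inhibitor of plasma, was at least 7.73-fold lower at day 9 than in mESC and at least 20.5-fold higher at day 14 than at day 9, and the former call was lost with normexp correction (-0.99). Klk1, a kallikrein, fell at day 9 (adjusted p 8.72e-08), where 1 of 4 arrays was well above background, so that the fitted log2 change of -3.26 is no measured size. It was also not called with normexp correction (adjusted p 0.0515). Furin, which cleaves the proenzymes of Mmp11 and Mmp14 and was named after its values were seen, rose by 1.66 ± 0.06 at day 9 (adjusted p 2.68e-10) and gave 0.90 ± 0.06 at day 14, called only with quantile normalization (1.12).

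Of the 21 listed matrix substrates 20 were tested, and most rose. There were 14 higher and 4 lower at day 9, 14 higher and 3 lower at day 14 against mESC, and 6 higher and 0 lower between the days, with medians of 3.45, 4.62 and 0.56. Col3a1, a fibrillar collagen chain, was at least 2560-fold above mESC at day 9 and at least 3310-fold at day 14 by its brightest probe. Its second probe, dim in mESC as well, was also called higher on both days. The fitted log2 changes of the second probe were much smaller, 4.35 and 5.72, beside 12.66 and 13.03. Col1a2 rose by 8.13 ± 0.15 (limma adjusted p 1.07e-12) and 9.00 ± 0.15 (adjusted p 3.99e-13). Vtn, vitronectin, was at least 107-fold above mESC at day 14.

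Decorin, Dcn, a collagen-binding proteoglycan, was at least 334-fold above mESC at day 9 and at least 4280-fold at day 14. It rose by 3.68 ± 0.29 between the days, beside 3.62 ± 0.17 for Bgn, biglycan, and 3.16 ± 0.08 for Eln, the elastin precursor and a substrate of Mmp12 (limma adjusted p 1.07e-06, 1.32e-08 and 9.49e-11). Spp1, osteopontin, ran 6.99, 7.09, 7.09 and 6.96 on the mESC arrays, -1.57, -1.11, -1.22 and -2.17 at day 9, and 5.52, 5.39, 5.51 and 5.35 at day 14. It thus fell by 8.55 ± 0.19 at day 9 (adjusted p 3.24e-12) and rose by 6.96 ± 0.19 between the days (adjusted p 2.22e-10).

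Genes known to regulate metalloproteinase transcription, AP-1 subunits and cytokines among them, numbered 21, of which 18 were tested. Of these, 7 rose and 2 fell at day 9, 11 rose and 2 fell at day 14 against mESC, and 5 rose and 2 fell between the days, with medians of 0.81, 2.15 and 0.30. The AP-1 subunit Jun rose by 4.85 ± 0.05 at day 9 (limma adjusted p 1.86e-14) and 4.59 ± 0.05 at day 14 (adjusted p 2.43e-14). Fosl2, another AP-1 subunit, was at least 17.8-fold and at least 35.3-fold above mESC by its brightest probe. Its second probe, also not well above background in mESC, was called higher too. The fitted log2 changes of the second probe were much smaller, 1.19 and 1.72, beside 5.73 and 6.71. Fos rose by 1.73 ± 0.11 between the days (adjusted p 1.73e-07). The AP-1 subunits Junb, Jund and Fosb were named after their values were seen. They gave 0.77, 0.11 and -0.76 at day 9 and were not called. At day 14 against mESC they gave 1.60, -0.26 and -0.60, and only Junb was called.

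Tgfb2, a growth factor that induces matrix genes, rose by 7.31 ± 0.08 at day 9 (limma adjusted p 3.26e-14) and stood 5.80 ± 0.08 above mESC at day 14 (adjusted p 1.23e-13). The zinc finger factor Egr1 rose by 4.78 ± 0.16 at day 9 (adjusted p 1.26e-10) and by a further 2.29 ± 0.16 between the days (adjusted p 4.25e-07). The cytokines Tnf and Il6 were below background on the 4 day 9 arrays and were at least 3.88-fold and at least 1.44-fold higher at day 14. Both of these calls were lost with normexp correction.

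**Figure D4:**
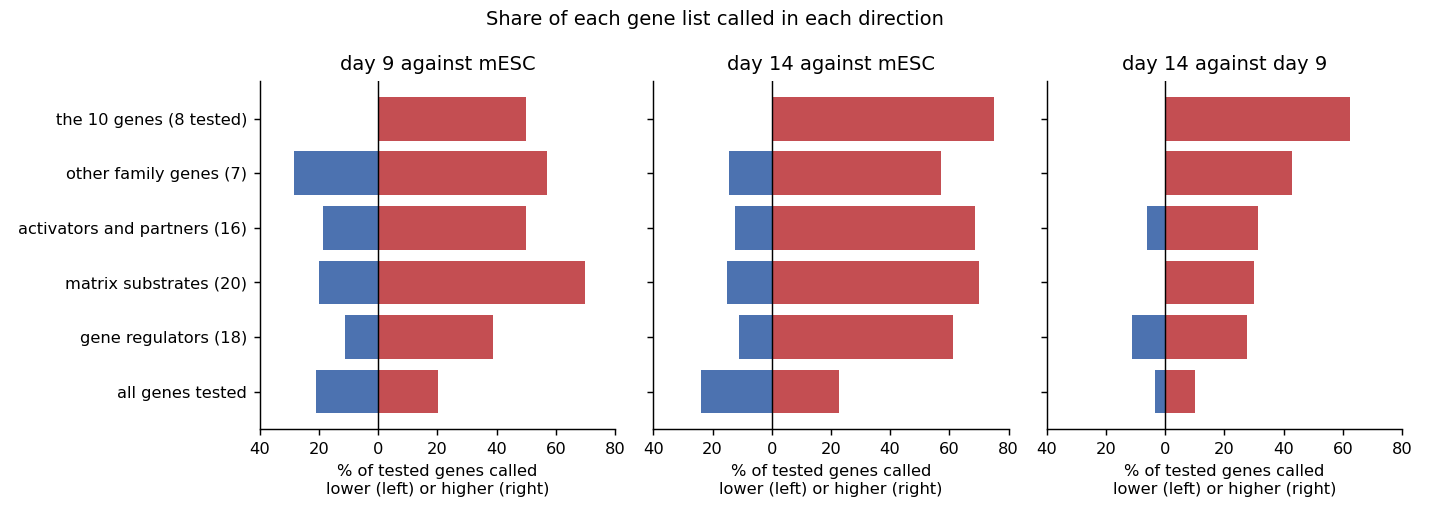
Percentage of the tested genes of each list called lower (blue, left of 0) or higher (red, right of 0) in each comparison; the number of genes tested stands in brackets, and the lowest bar gives all 20875 genes. Of the 8 tested members 4, 6 and 5 were called higher and 0 lower, beside 20.1%, 22.8% and 10.2% of all genes called higher.

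Markers of other cell types moved in the same intervals as the members. The 17 macrophage markers were all tested: 2 rose and 3 were called lower at day 9 (1 of these, Spi1, was not well above background on any array of either group), 15 rose and 1 fell at day 14 against mESC, and 17 rose between the days. Their summed level, with the 75th percentile as 1, was 3.55 to 4.07 in mESC, 0.710 to 0.992 at day 9 and 30.2 to 37.5 at day 14. In mESC 10 of the 17 were not well above background on any array. Cd68 and Laptm5 were the brightest there, with log2 levels of 0.37 to 0.62 and 0.78 to 1.01. At day 9, 8 of them were below background on all arrays (Adgre1, C1qa, C1qc, Itgam, Lyz2, Spi1, Aif1 and Cx3cr1), and at day 14 none was. Adgre1, C1qc and Cx3cr1 were at least 199-fold, 175-fold and 50.8-fold higher at day 14 than at day 9, by their brightest probes. Second probes of Adgre1 and Cx3cr1 were not well above background at day 9 either. They were also called, with smaller fitted log2 changes of 2.92 and 2.39, beside 8.34 and 7.25 for the brightest. Mpeg1 rose by 7.10 ± 0.59 on the log2 scale (limma adjusted p 1.35e-06). Its day 9 levels were -4.28, -7.42, -4.41 and -4.28. Replicate 2 thus lay below the dimmest signal well above background on that array (-5.85), and the size rests in part on it. Mmp9 and Mmp12 rose in the same interval, and the part of these cells in that rise was not tested. On day 9 replicate 3, where Mmp12 was well above background, the macrophage sum was 0.809, inside the range of the other day 9 arrays.

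Markers of other cell types known to make metalloproteinases were counted in the same way. Of 7 osteoclast markers 4 rose and 1 fell between the days, with sums of 0.479 to 0.536 at day 9 and 1.85 to 2.25 at day 14, against 2.23 to 2.39 in mESC. Only 3 of 10 neutrophil and mast cell markers were tested, of which 1 rose between the days, and their sums at day 9, 0.0858 to 0.160, overlapped those at day 14, 0.142 to 0.191. Of 9 trophoblast markers 6 were tested, with 2 higher and 1 lower between the days.

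Most stromal markers rose against mESC on both days, as Mmp2, Mmp14, Timp2 and Timp3 did, and fewer rose between the days. Of 14 fibroblast and stromal genes 12 rose and 1 fell at day 9, 13 rose and 1 fell at day 14 against mESC, and 6 rose and 1 fell between the days. The list shares Col1a1, Col1a2, Col3a1 and Dcn with the substrates. Its sums were 4.45 to 4.78 in mESC, 249.5 to 438 at day 9 and 561 to 616.5 at day 14. Of 7 smooth muscle genes 6 rose on each day and none fell, of 9 visceral endoderm and liver genes 8 rose and none fell, and of 8 parietal endoderm genes, a list that also holds Plat, 7 rose and none fell. Between the days 2 of the smooth muscle genes rose and 0 fell. In the same step 3 visceral endoderm and liver genes rose and 2 fell, and 1 parietal endoderm gene rose. The 10 cardiomyocyte genes rose against mESC on both days too, with 0 higher and 1 lower between the days. Of 8 endothelial genes tested, 5 rose and 2 fell at day 9, and 5 fell between the days. Of 9 chondrocyte and osteoblast genes tested, 3 rose and 5 fell at day 9. The part of any of these cell types in the members' change was not tested.

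**Figure D5:**
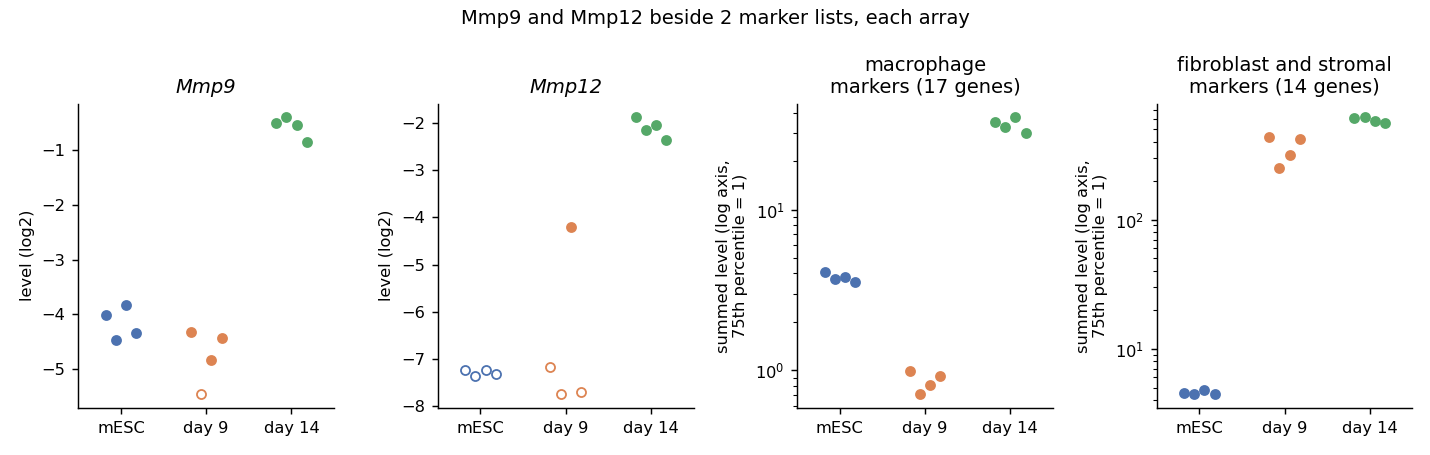
Mmp9 and Mmp12 (log2 level, open points not well above background) beside the summed level of 17 macrophage and 14 fibroblast and stromal markers (log axis) on each array. Mmp9, Mmp12 and both sums are highest on the 4 day 14 arrays, and the fibroblast sum is already 249.5 or more on every day 9 array. Of the lists not drawn, the visceral endoderm and liver sum and the osteoclast sum were also higher at day 14 than at day 9. The smooth muscle and endothelial sums were lower. The part of any cell type was not tested.

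The replicates of day 9 were less alike than those of the other groups. The median SD of the 8 tested members was 0.23 at day 9, beside 0.08 in mESC and 0.10 at day 14. Replicate 2 was the lowest day 9 array for 6 of the 8 members, and replicate 3 for the other 2. The fibroblast sum of the 4 day 9 arrays was 438, 249.5, 317.8 and 418.2, lowest on replicate 2, and the cardiomyocyte sum was 186.6, 365.6, 345.4 and 262.0, highest on replicate 2. Whether this makeup set the members' spread was not tested.

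For each tested member the 3 genes with the most similar course over the 12 arrays were found by the root mean square difference of the profiles, each centred on its own mean. For Timp2 these were Fbln2 (0.12), Timp3 (0.15) and Gria3 (0.18), and for Timp3 they were Fbln2 (0.13), Timp2 (0.15) and Gria3 (0.20). Fbln2 encodes fibulin-2, a matrix protein. Mmp2 was nearest to St8sia4 (0.12), Lama4 (0.13) and Aebp1 (0.14), and Mmp14 to Npr2 (0.09), Bend5 (0.10) and App (0.11).

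Mmp9 lay nearest to Arhgap25 (0.23), Grifin (0.24) and Mrc1 (0.25), the last of which encodes the mannose receptor of macrophages. Mmp12, whose profile spans readings below background, had no close match, the nearest being Adamts16 (0.73), Cldn15 (0.73) and Nts (0.75). The flat profiles of Timp1 and Mmp11 had near matches at 0.09 or less: Ggh, Arpc1b and Slc18b1 for Timp1, and Pdk3, Ergic3 and Dip2c for Mmp11. These distances describe 12 arrays in 3 groups and were not tested.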

How the data were processed

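Total RNA was labelled with Cy3 and hybridised to one-colour Agilent arrays, per the labels. The deposited processed signal is an intensity after background subtraction, extracted from each array with Agilent Feature Extraction 12 per the file headers and not scaled between arrays. Further columns used were flags of 0 or 1 for spots well above background, saturated or outlying, per the file headers. The median signal and the median background signal, both intensities, were used only for normexp correction. No spot was saturated. The deposited series table held the same intensity values. Spots of a probe were averaged, and log2 signal was reduced by each array's 75th percentile. The members and lists were chosen with earlier results of these data known.

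Probes were named through their RefSeq accession in the GRCm38.p6 annotation, with a symbol found for 28223 of 41174. The array headers refer to mm9, so positions are given only for the RefSeq promoter windows. A probe was tested if well above background on at least 3 of 4 arrays of 1 group, and where a gene had several tested probes the brightest on average was used. Group means over the 12 arrays were fitted with limma 3.58.1 in R 4.3.3, two-sided, with Benjamini-Hochberg adjustment over 20875 genes. The fit was tested on simulated data. The number of arrays limits the precision.

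Besides the members, the text names, of each list, called genes among the 4 with the largest change in a comparison, also in other comparisons. It gives a part of them, and says where a gene was named outside that rule. Gene lists are described by counts and medians, without a set test. Alternatives were normexp background correction, quantile normalization, median scaling, the series table, other probe filters and probes, other samples or variance models, a replicate block and leaving out each array. The files used here have no mean signal, so normexp used the deposited median signal and median background signal, per the file headers. Its offset of 50 signal units makes fold changes of dim probes smaller, so calls lost or sizes reduced with it concern mainly dim readings.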

Additional observations from a re-analysis of the deposited data

Results flagged for a closer look

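A gap test over the 4 arrays of a group was applied to the 10 genes in 3 groups. Of these 30 combinations, 4 had 1 array far from the other 3 by Dixon's test, where chance gives about 1 in 20. Mmp12 on day 9 replicate 3 read -4.20 and was well above background, while the other 3 arrays had a median of -7.71. Timp2 on day 14 replicate 2 read 4.94 against a median of 4.67. Mmp11 on mESC replicate 3 read 2.03 against 2.08, a small gap in a tight group. Mmp13 on day 9 replicate 1 read -7.46 against -7.87, all of it below background.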

How the results depend on the processing

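With day 9 and day 14 set against mESC 4 and 6 members were called, and 5 between the days. With probes above background on all arrays they were 4, 4 and 3, since this takes Mmp9 and Mmp12 out of the test. No member still tested lost its call. With no filter they were 4, 7 and 6, since this adds Mmp3 and Mmp13, not well above background on any array, to the test. Among all genes the main counts of 8566, 9772 and 2879 became 4753, 5849 and 1233 with normexp correction, and 5481, 6420 and 1303 with probes above background on all arrays, which tests fewer genes. Leaving out 1 array at a time gave 8542 to 8619, 9745 to 9794 and 2841 to 2925 genes, and 4, 6 and 5 members throughout. No pairing of samples by replicate number was seen. Correlations of same-numbered arrays ran from -0.08 to 0.18, and 3 of 12 arrays matched best with their own number. Such low values do not exclude that samples of 1 number share an origin, which the labels do not state. With the replicate number as a block 8565, 9774 and 2875 genes and 4, 6 and 5 members were called, and no member's call changed.

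Directions turned in small or dim values. Mmp11 at day 9 was -0.068 with median scaling. Mmp12 at day 9 was -0.042 with normexp correction, and between -0.25 (without day 9 replicate 3) and 0.93 when single arrays were left out. Timp1 at day 14 against mESC was 0.27 with quantile normalization, and Timp4 was 0.18 with normexp correction. Mmp9 minus Timp1 at day 9 was -0.27 with quantile normalization. Timp3 minus Timp2 at day 14 against mESC was -0.77 with normexp correction and -0.15 with quantile normalization. The cause was not tested. Leaving out single arrays was added for the pairs after the data were seen, with the exact test of 3 against 4 arrays. It left 14 to 16 of the 21 tests past the threshold, and no called pair changed sign. The ranges were -0.066 to 0.16 for Mmp9 minus Timp1 at day 9, -0.13 to 0.018 for Timp3 minus Timp2 at day 9, and -0.046 to 0.12 for that pair at day 14 against mESC.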
